A study of Mus musculus with 4 samples.

Results

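The genes described here are 37 markers and regulators of the endothelium, the cell layer that lines blood vessels, out of 19365 genes measured by the arrays. The rule for a member uses its name: each non-control probe whose gene name, or an older synonym such as Eltd1 for Adgrl4, stood on the list was taken. All 37 were present on the array, with 47 probes, and all 37 kept at least 1 probe after the filter on dim signals, which removed 2 probes. The ureters came from NMRI mouse embryos at E14.5, a stage given in embryonic days. The mutant, called cDKO (conditional double knockout), carried Tbx18(cre/+) together with Fgfr1(fl/fl) and Fgfr2(fl/fl), and the control carried Fgfr1(fl/?) and Fgfr2(fl/?) with no cre allele in its label. Floxed alleles of both FGF receptor genes were thus present in every group, and 150 ng of total RNA went into each labelling. Tbx18, which drives cre here, encodes a transcription factor of the mesenchyme around the ureter, and since only mutants carried this allele, its own effect and that of the receptor loss cannot be told apart. On each of 4 two-colour arrays cDKO RNA was set against control RNA under the same sex label (female on replicates 1 and 4, male on replicates 2 and 3). The cDKO RNA carried Cy5 on replicates 1 and 3 and Cy3 on replicates 2 and 4. No animals or pools are named behind the replicates, so p-values reflect only how these 4 pairs varied, which may be technical.

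Endothelial cells hold together through junction proteins such as VE-cadherin (Cdh5), PECAM-1 and claudin-5. They receive growth signals through VEGF receptors (Flt1, Kdr and Flt4) and through the receptor Tek, which binds angiopoietins and works with its relative Tie1. Their identity is set largely by ETS factors such as Erg and Fli1 and by SOXF factors (Sox7, Sox17 and Sox18). In the embryonic ureter, vessels run within the mesenchyme around the epithelial tube, so whole-ureter RNA holds endothelial RNA beside that of many other cells.

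Values are log2 ratios of cDKO over control, so that a negative value is a lower signal in the mutant. The fitted ratio is given with its standard error (SE) over n = 4 arrays, and a gene was called at a Benjamini-Hochberg adjusted p under 0.05 over all 19365 genes (limma). On replicates 1 to 4 the median spot signal was 373, 139, 383 and 333 for cDKO and 169, 417, 302 and 373 for control. The channels were thus most unequal on replicates 1 and 2, and replicate 2 had the dimmest cDKO channel. None of the spots was saturated, and 64.9% to 72.6% of spots per channel were well above background. Replicates 1 and 2 shared slide 1 and replicates 3 and 4 shared slide 2, each with its own scan and scanner. Of the targeted genes, Fgfr1 gave -0.35, -0.094, -0.59 and -0.55 on replicates 1 to 4 (adjusted p = 0.117, not called), and Fgfr2 gave 0.68, 0.50, 0.56 and 0.60 (adjusted p = 0.0356), higher in the mutant. The sources used here do not place these probes inside or outside the floxed exons, so they do not check the deletion.

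The array reads each gene through 60-base probes, and 4 of them are shown because the results on the vessel surface and on the TIE receptors rest on them. The files assign them to RefSeq transcripts of their genes and place them in build mm9 at chr3:137086389-137086448 (Emcn, plus strand), chr11:106540864-106540923 (Pecam1, minus strand), chr4:94540624-94540683 (Tek, plus strand) and chr4:118144132-118144191 (Tie1, minus strand). Capitals mark the bases that Tek and Tie1 share when their probes are set against each other without gaps.
Emcn: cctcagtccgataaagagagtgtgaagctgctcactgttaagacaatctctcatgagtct
Pecam1: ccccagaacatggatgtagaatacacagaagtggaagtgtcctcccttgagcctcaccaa
Tek: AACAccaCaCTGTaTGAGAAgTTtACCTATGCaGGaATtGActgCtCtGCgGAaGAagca
Tie1: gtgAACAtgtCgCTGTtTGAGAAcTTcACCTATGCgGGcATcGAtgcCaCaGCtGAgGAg
The Tek and Tie1 probes overlap over 57 bases, of which 39 (68.4%) are identical, with the Tie1 probe starting 3 bases earlier. They cover corresponding stretches of these related receptor kinases.

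Promoters of some of the 37 genes are shown as a description only. Erg and Fli1, which are among the 37, belong to a factor family that binds DNA around a GGAA core. RefSeq start sites (GRCm38.p6) were found by symbol for 17 of the 37 genes, with 22 windows of the 250 bases before the start. Each window is printed 5′ to 3′ on the strand of its gene, with capitals marking CGGAAG or AGGAAG on either strand, the ETS letters searched for. The windows of Emcn, Cd34 and Tie1, genes with ratios below 0 on all 4 arrays, are set beside that of Flt1, with a ratio near 0. They lie at chr3:137340828-137341077 (plus strand), chr1:194938571-194938820 (plus strand), chr4:118489850-118490099 (minus strand) and chr5:147726012-147726261 (minus strand).
Emcn: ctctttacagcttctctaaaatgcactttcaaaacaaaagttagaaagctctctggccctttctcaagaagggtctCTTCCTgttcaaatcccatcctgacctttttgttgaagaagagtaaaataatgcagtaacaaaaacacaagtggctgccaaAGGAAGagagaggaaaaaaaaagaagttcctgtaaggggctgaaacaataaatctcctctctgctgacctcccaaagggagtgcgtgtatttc
Cd34: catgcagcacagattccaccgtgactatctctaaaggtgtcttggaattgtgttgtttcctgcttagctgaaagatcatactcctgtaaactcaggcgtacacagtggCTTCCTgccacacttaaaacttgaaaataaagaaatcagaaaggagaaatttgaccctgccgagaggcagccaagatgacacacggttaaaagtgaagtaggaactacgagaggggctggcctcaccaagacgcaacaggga
Tie1: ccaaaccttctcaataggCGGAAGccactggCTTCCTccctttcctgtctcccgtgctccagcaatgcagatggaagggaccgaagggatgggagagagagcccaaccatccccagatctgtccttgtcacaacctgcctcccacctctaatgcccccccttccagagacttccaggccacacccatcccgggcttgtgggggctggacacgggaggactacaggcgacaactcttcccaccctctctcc
Flt1: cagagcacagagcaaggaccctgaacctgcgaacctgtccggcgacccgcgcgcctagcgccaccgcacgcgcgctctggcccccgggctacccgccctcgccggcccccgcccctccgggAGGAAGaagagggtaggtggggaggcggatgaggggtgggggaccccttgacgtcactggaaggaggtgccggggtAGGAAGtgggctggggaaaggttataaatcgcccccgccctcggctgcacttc
The ETS letters stood in 12 of the 22 windows (54.5%), against 39.2% of all 32851 RefSeq windows of that length. The Emcn window held 2 matches, starting at -174 and -93 from the start site, that of Cd34 held 1 at -142, that of Tie1 2 at -232 and -219, and that of Flt1 2 at -129 and -53. The window of Tek, at -0.44, held none. Whether matches and ratios are linked was not tested. The SOX letters AACAAT, searched on both strands, stood in 3 windows (13.6% against 9.42% of all), those of Emcn, Erg and Tek. The GATA letters AGATAA stood in 2 (9.09% against 9.99%) and the forkhead letters TAAACA in 1 (4.55% against 12%). None of these motifs contains another, though several can share bases at their ends, and a match describes the letters only.

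Across the 37 genes the mutant signal was mostly the lower one, by a modest amount. The median fitted ratio was -0.24, against 0.0086 over all genes, and 31 of 37 ratios were below 0 (83.8%), where 47.3% of all genes were. On all 4 arrays 15 genes were below 0 (11.8% of all genes) and 1, Angpt2, was above (13.4% of all genes). By the adjusted test 1 gene was lower, the sialomucin Emcn, where 0.3% of all genes were called lower. None was called higher (0.553% of all genes). At an unadjusted p under 0.05, 17 of 37 were lower (7.88% of all genes) and 1 was higher (11.7% of all genes). In whole-ureter RNA, fewer endothelial cells and less RNA of these genes per cell cannot be told apart.

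**Figure D1:**
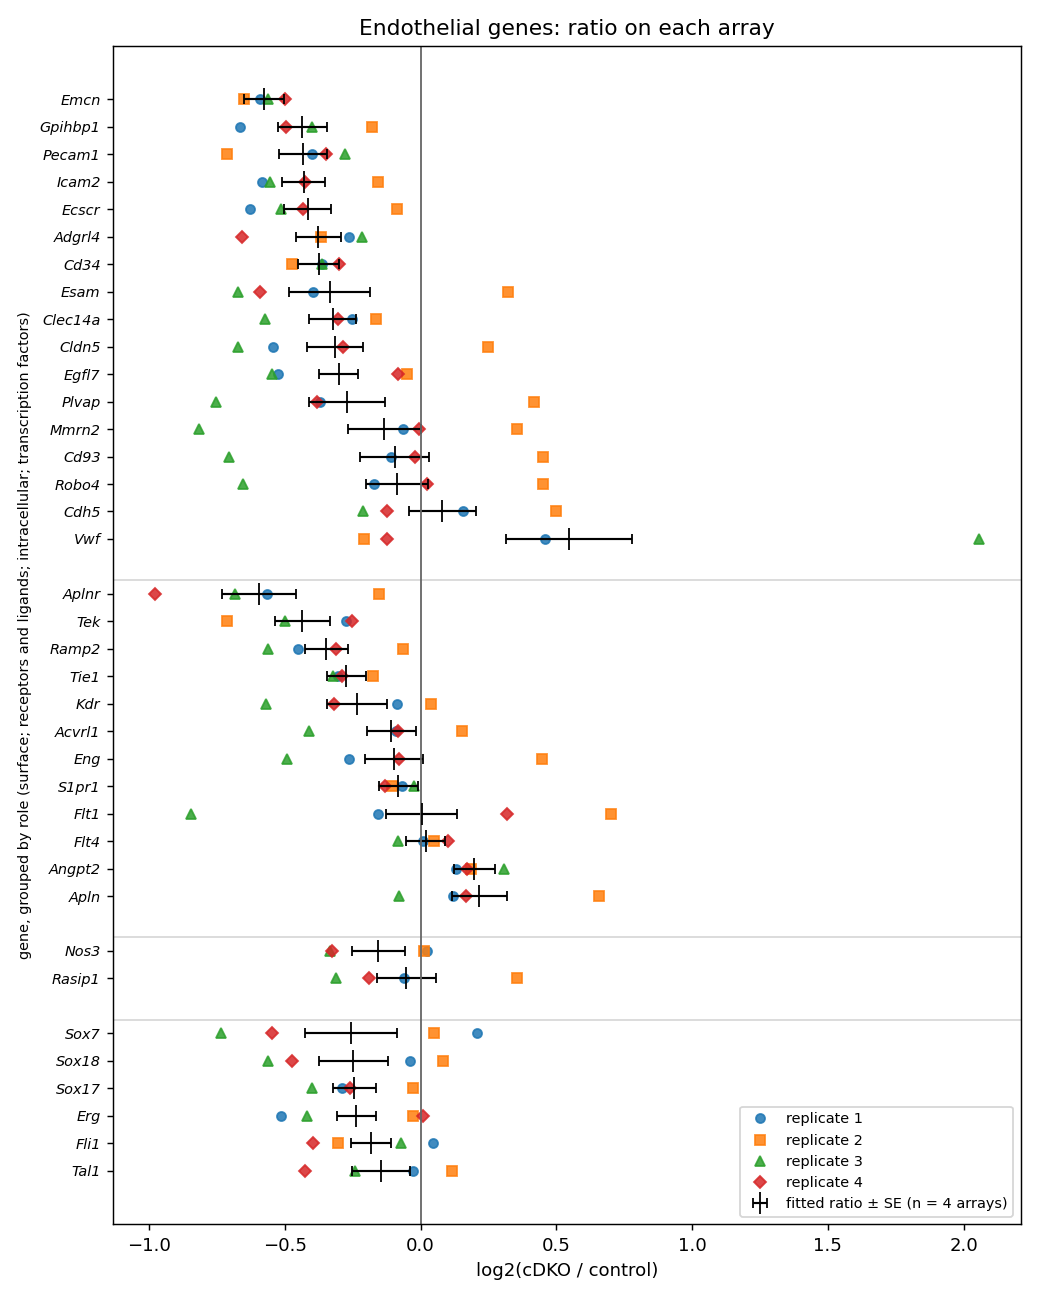
Log2 ratio of cDKO over control for each of the 37 genes on each of the 4 arrays (coloured symbols) and the fitted ratio with its SE (black, n = 4), grouped by role. Emcn lies between -0.65 and -0.50 on every array, whereas replicate 2 (squares) lies above 0 for 19 genes and replicate 3 (triangles) below 0 for 35.

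The arrays did not contribute evenly. The median of the 37 genes was -0.25 on replicate 1, 0.012 on replicate 2, -0.49 on replicate 3 and -0.29 on replicate 4, whereas the median of all genes stayed between -0.0073 and 0.014. On replicates 1 to 4, 29, 18, 35 and 31 of the 37 genes were below 0. Replicate 2 was thus near 0 and replicate 3 lay farthest below it.

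Surface and junction proteins made up 17 of the genes, and 15 of them had a ratio below 0, with a median of -0.32. Emcn, the called gene, encodes endomucin, a sialomucin of capillaries and veins. Its control levels (log2 channel signal) were 11.40, 11.31, 11.20 and 11.32 on replicates 1 to 4 and its cDKO levels 10.81, 10.66, 10.64 and 10.82. The genotypes did not overlap, and the 4 ratios of -0.59, -0.65, -0.56 and -0.50 were close to each other. The fitted ratio was -0.58 ± 0.074, a signal 1.49-fold lower in the mutant (limma, adjusted p = 0.0363). In this balanced design the terms of the fit and the pairing could not move the ratio. Nor could the filter or the probe choice, since no other Emcn probe was on the array. Under all 16 alternatives it lay between -0.62 and -0.53, but the adjusted p ran from 0.00227 to 0.387 and was under 0.05 in 9 of them. It missed the threshold without replicate 1 (adjusted p = 0.146), replicate 2 (0.0759) or replicate 3 (0.0575), with a sex term (0.108), on slide 2 alone (0.387), with median centring (0.079) and with no filter on dim probes (0.0833).

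Other surface genes had ratios nearly as low without passing the adjusted test. Pecam1, which encodes the junctional adhesion molecule CD31, had control levels of 9.76, 9.91, 9.93 and 9.87 and cDKO levels of 9.37, 9.20, 9.66 and 9.53. Its ratios were -0.40, -0.71, -0.28 and -0.35 and the fit gave -0.43 ± 0.088 (adjusted p = 0.0829). The genotypes did not overlap, and replicate 2 lay lowest. Without replicate 4 the ratio was -0.53. That fit kept the dye term, so replicate 2, then the only array with cDKO in Cy3, weighed most. Cd34, a sialomucin shared by endothelium and blood progenitors, gave -0.36, -0.47, -0.36 and -0.30, with a fit of -0.38 ± 0.075 (adjusted p = 0.0781). Icam2, an adhesion molecule for leukocytes, gave -0.58, -0.16, -0.55 and -0.42, with a fit of -0.43 ± 0.080 (adjusted p = 0.0673). Cd34 was even across the arrays, whereas Icam2 was nearest to 0 on replicate 2.

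Gpihbp1 encodes the protein that carries lipoprotein lipase across the capillary wall. It gave -0.67, -0.18, -0.40 and -0.50, with a fit of -0.43 ± 0.091 (adjusted p = 0.0864). Ecscr, a surface protein of endothelial cells that acts in their migration, gave -0.63, -0.086, -0.51 and -0.43, with a fit of -0.42 ± 0.087 (adjusted p = 0.0864). Adgrl4, an adhesion G protein-coupled receptor, gave -0.26, -0.37, -0.22 and -0.66, with a fit of -0.38 ± 0.082 (adjusted p = 0.0933). Clec14a, a lectin-like receptor, gave -0.25, -0.16, -0.57 and -0.31, with a fit of -0.32 ± 0.086 (adjusted p = 0.127). These 4 genes were below 0 on every array and none passed the adjusted test. Egfl7, a secreted matrix protein of vessels, was also below 0 on every array (-0.53, -0.049, -0.55 and -0.084), with a fit of -0.30 ± 0.071 (adjusted p = 0.107), and lay nearer to 0 where cDKO carried Cy3.

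**Figure D2:**
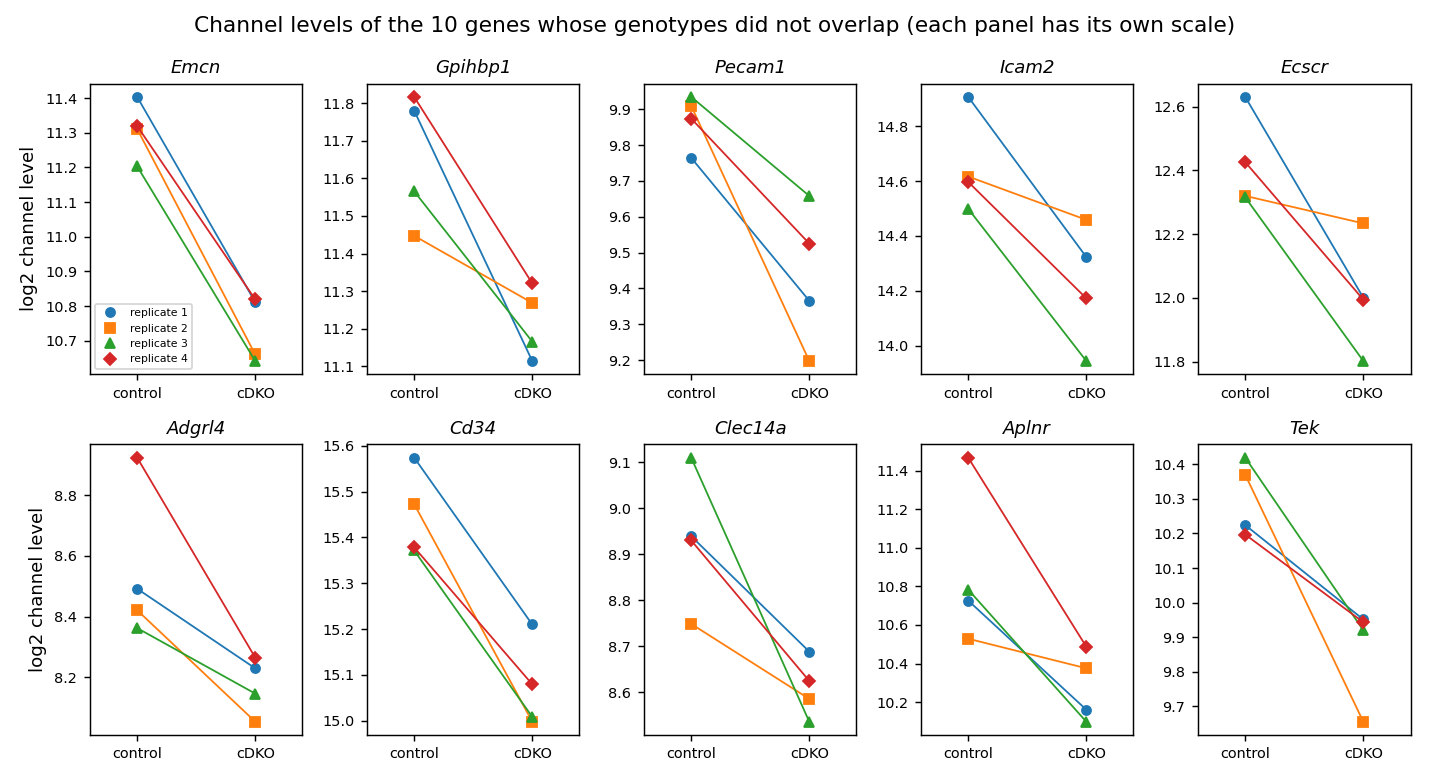
Log2 channel level in control and cDKO on each array for the 10 genes whose cDKO levels all lay below all control levels, with a line joining the channels of an array. Every line falls from control to cDKO, by 0.086 for Ecscr on replicate 2 up to 0.98 for Aplnr on replicate 4.

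For 10 of the 37 genes every cDKO level lay below every control level (3.34% of all genes did so), and for none did every cDKO level lie above (4.7% of all genes). The 10 were Emcn, Pecam1, Icam2, Clec14a, Cd34, Ecscr, Adgrl4 and Gpihbp1 among the surface genes and Tek and Aplnr among the receptors.

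A second set of surface genes split between the arrays. Cdh5, VE-cadherin itself, gave 0.16, 0.50, -0.21 and -0.12 on replicates 1 to 4, with a fit of 0.080 ± 0.12 (adjusted p = 0.772). Its slide 1 ratios were above 0 and its slide 2 ratios below 0, so the genotypes overlapped. Cldn5, the tight junction claudin of endothelium, gave -0.55, 0.25, -0.67 and -0.29 (fit -0.31 ± 0.10, adjusted p = 0.178). Esam, a junctional adhesion molecule, gave -0.40, 0.32, -0.67 and -0.59 (fit -0.33 ± 0.15, adjusted p = 0.281). Plvap, which forms the diaphragms of fenestrae, gave -0.37, 0.42, -0.75 and -0.38 (fit -0.27 ± 0.14, adjusted p = 0.344). In these 3 genes replicate 2 alone was above 0. Mmrn2, a matrix protein that binds Clec14a and Cd93, gave -0.064, 0.36, -0.82 and -0.0059, and Cd93 gave -0.11, 0.45, -0.71 and -0.019. Robo4, a roundabout receptor of vessels, gave -0.17, 0.45, -0.65 and 0.025. The fits of these last 3 were -0.13, -0.10 and -0.087, and each was high on replicate 2 and low on replicate 3.

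Vwf, the von Willebrand factor of endothelial storage granules and of platelets, rested on 1 array. Its ratios were 0.46, -0.21, 2.06 and -0.12, with a fit of 0.55 ± 0.23 (adjusted p = 0.263), and its cDKO level on replicate 3 was 10.53 against 8.13 to 8.51 on the others. Without replicate 3 the ratio was 0.15, and without replicate 1 it was 0.95. Both fits kept the dye term with 1 array of cDKO in Cy5, which was fitted exactly and added nothing to the SE. The 0.95 thus leaned on replicate 3. A dimmer probe, assigned to another transcript at chr6:125542106-125542165 (mm9), gave -0.038, 0.038, 0.28 and -0.10. This probe lay near background, with as few as 1 of 4 control spots well above it on an array, which limits what its small ratios can show.

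Receptors and their ligands made up 12 genes, 8 of them with a ratio below 0, with a median of -0.10 and none called by limma (4 lower and 1 higher at an unadjusted p under 0.05). Aplnr, the apelin receptor of sprouting and venous endothelium, had the lowest ratio of all 37 genes. Its control levels were 10.73, 10.53, 10.78 and 11.47 and its cDKO levels 10.16, 10.38, 10.10 and 10.49, with no overlap. The ratios were -0.57, -0.15, -0.68 and -0.98 and the fit -0.60 ± 0.14 (adjusted p = 0.101), with a wide spread between arrays. Without replicate 2, the array nearest to 0, the ratio was -0.80. That fit kept the dye term, so replicate 4, then the only array with cDKO in Cy3, weighed most and added nothing to the SE. Its ligand Apln gave 0.12, 0.66, -0.080 and 0.17, with a fit of 0.22 ± 0.10 (adjusted p = 0.301), above 0 on 3 arrays.

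The angiopoietin receptor Tek had control levels of 10.22, 10.37, 10.42 and 10.20 and cDKO levels of 9.95, 9.66, 9.92 and 9.94. Its ratios were -0.27, -0.71, -0.50 and -0.25, with a fit of -0.44 ± 0.10 (adjusted p = 0.102), and the genotypes did not overlap. Without replicate 4 the ratio was -0.55, in a fit where replicate 2, the lowest array of Tek, weighed most. Tie1, its partner receptor, gave -0.31, -0.18, -0.32 and -0.29, with a fit of -0.27 ± 0.072 (adjusted p = 0.126), an even value across the arrays. Tie1 levels did overlap, and both channels were higher on slide 2. Angpt2, a ligand of Tek made by endothelial cells, was the 1 gene above 0 on all 4 arrays, at 0.13, 0.19, 0.31 and 0.17, with a fit of 0.20 ± 0.075 (unadjusted p = 0.0352, adjusted p = 0.221).

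Of the VEGF receptors, Kdr (VEGFR2), the main signalling receptor, gave -0.087, 0.037, -0.57 and -0.32, with a fit of -0.23 ± 0.11 (adjusted p = 0.297). Flt1 (VEGFR1), which also exists as a soluble decoy, gave -0.15, 0.70, -0.84 and 0.32, with a fit of 0.0046 ± 0.13 (adjusted p = 0.991). Flt4 (VEGFR3), which is strong in lymphatic endothelium, gave 0.0072, 0.048, -0.081 and 0.10, with a fit of 0.019 ± 0.072 (adjusted p = 0.918). Flt1 thus had the widest spread around 0 of the 3 and Flt4 stayed near 0 on each. The Flt4 probe was dim, with as few as 3 of 4 control spots well above background on an array. This limits what its small ratios can show. Eng (endoglin), a co-receptor for BMP and TGF-beta ligands, gave -0.26, 0.45, -0.49 and -0.079, with a fit of -0.10 ± 0.11 (adjusted p = 0.669). Acvrl1 (ALK1), the BMP receptor it works with, gave -0.089, 0.15, -0.41 and -0.082, with a fit of -0.11 ± 0.090 (adjusted p = 0.561). Both were above 0 on replicate 2 alone. S1pr1, the sphingosine phosphate receptor that stabilises vessels, gave -0.068, -0.10, -0.024 and -0.13, with a fit of -0.082 ± 0.071. Ramp2, which pairs with the calcitonin-like receptor to form the adrenomedullin receptor, gave -0.45, -0.065, -0.56 and -0.31, with a fit of -0.35 ± 0.080 (adjusted p = 0.103), below 0 on all 4 arrays.

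All 6 transcription factors had a ratio below 0, with a median of -0.24, and none was called by limma, although 3 were lower at an unadjusted p under 0.05 (Erg, Fli1 and Sox17). The ETS factor Erg gave -0.51, -0.027, -0.42 and 0.0096, with a fit of -0.24 ± 0.072 (adjusted p = 0.16). Fli1, its relative, gave 0.047, -0.31, -0.071 and -0.40, with a fit of -0.18 ± 0.074 (adjusted p = 0.246). The low arrays differed between the pair: Erg was low on replicates 1 and 3, where cDKO carried Cy5, and Fli1 on replicates 2 and 4. Sox17, the SOXF factor of arteries, gave -0.29, -0.026, -0.40 and -0.26, with a fit of -0.24 ± 0.079 (adjusted p = 0.175), and was the 1 factor below 0 on all 4 arrays. Sox7 gave 0.21, 0.049, -0.74 and -0.55 and Sox18 gave -0.040, 0.082, -0.56 and -0.47, with fits of -0.26 ± 0.17 and -0.25 ± 0.13. Both were low on slide 2 and near or above 0 on slide 1. Tal1, shared by early blood and endothelium, gave -0.030, 0.11, -0.24 and -0.43, with a fit of -0.15 ± 0.11.

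Among the intracellular genes, Nos3, the endothelial nitric oxide synthase, gave 0.024, 0.012, -0.33 and -0.33, with a fit of -0.16 ± 0.10. Rasip1, a Ras-interacting protein needed for vessel lumens, gave -0.060, 0.36, -0.31 and -0.19, with a fit of -0.052 ± 0.11. Neither was called (adjusted p = 0.431 and 0.843), and both were lower on slide 2 than on slide 1.

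Ratios differed between the slides for many of these genes, though no single difference was called. The mean ratio was below 0 on both slides for 20 of 37 genes (29.2% of all genes) and above 0 on slide 1 but below 0 on slide 2 for 13 (18.6% of all genes). The remaining 4 genes, Vwf, Flt4, Angpt2 and Apln, were above 0 on both. The median of slide means was -0.038 on slide 1 and -0.33 on slide 2. Tested gene by gene, the difference between slides was called for 0 of 37 genes by limma (0.893% of all genes). The lowest adjusted p was 0.0682 for Sox7, whose means were 0.13 on slide 1 and -0.64 on slide 2. At an unadjusted p under 0.05, 17 of 37 differed, 16 of them lower on slide 2 (8.52% of all genes). Emcn had -0.62 on slide 1 and -0.53 on slide 2, Cd34 -0.42 on slide 1 and -0.33 on slide 2, Gpihbp1 -0.42 on slide 1 and -0.45 on slide 2 and Tie1 -0.24 on slide 1 and -0.31 on slide 2, so that these genes differed little between slides.

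With a slide term beside the dye term, the fit left 1 residual degree of freedom, the contrast between the sex labels. It called 16 of the 37 genes, where 12.5% of all genes were called. The 15 called lower were Emcn, Aplnr, Pecam1, Icam2, Cd34, Ecscr, Gpihbp1, Adgrl4, Ramp2, Tek, Clec14a, Egfl7, Cldn5, Tie1 and Esam, and the 1 called higher was Vwf (limma, adjusted p from 0.00227 for Emcn to 0.046 for Vwf). Within slide 1 alone 1 of the 37, Emcn, was called (adjusted p = 0.0473), a share near the 2.85% of all genes called there. Within slide 2 alone no gene of the 19365 was called by limma (1346 had an unadjusted p under 0.05), although 21 of the 37 were lower at an unadjusted p under 0.05 (3.16% of all genes).

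**Figure D3:**
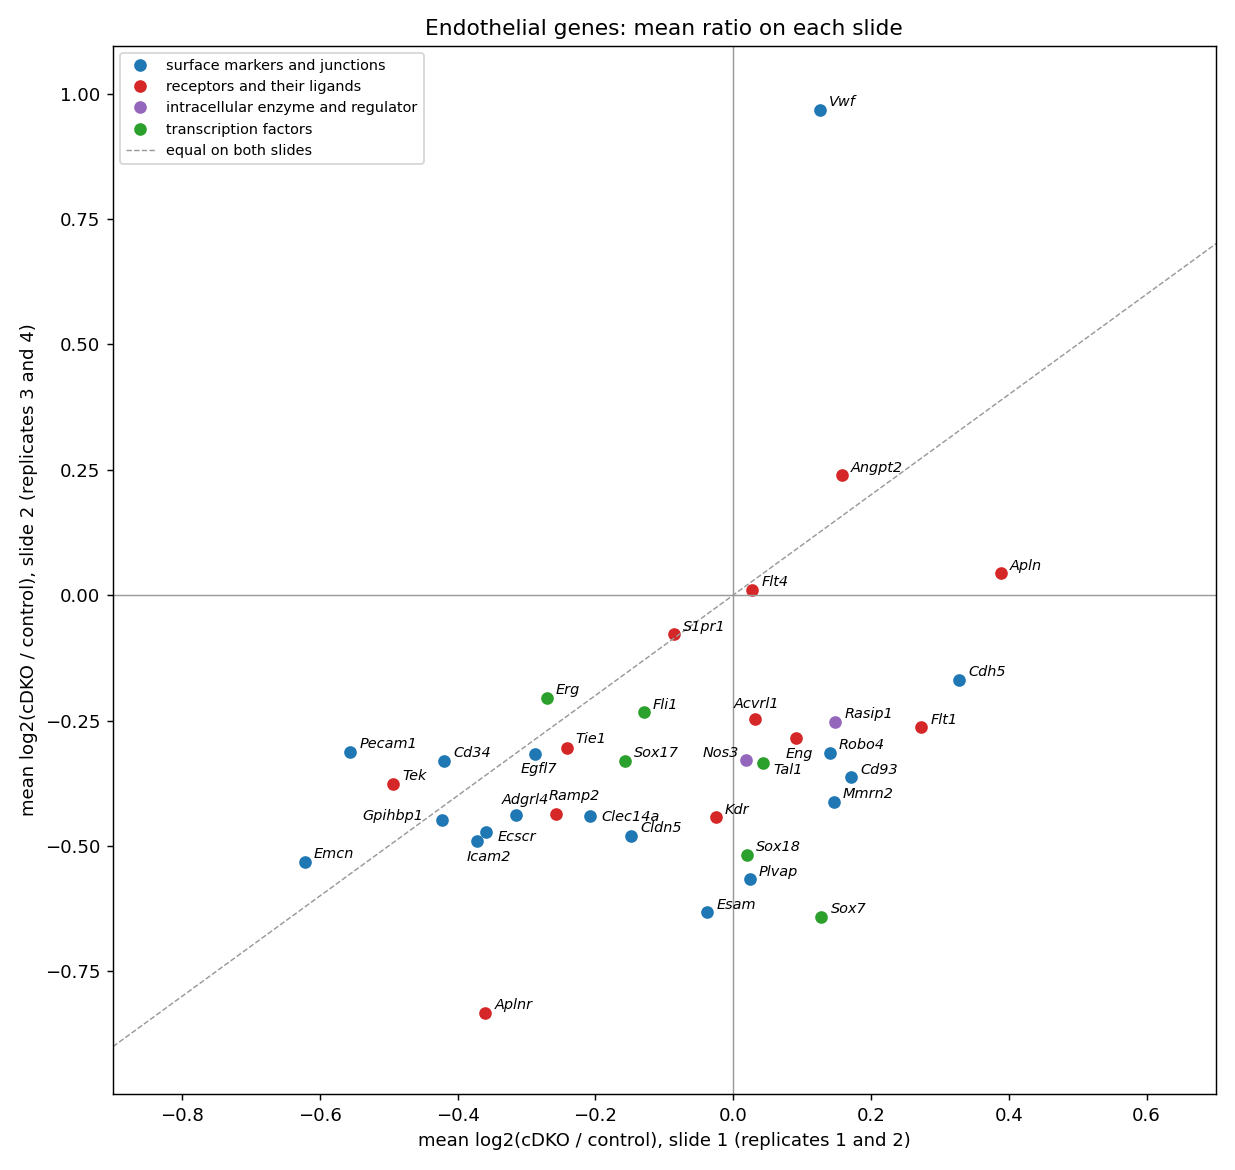
Mean log2 ratio of cDKO over control on slide 1 (x axis) against slide 2 (y axis) for the 37 genes, 1 point a gene, coloured by role. Emcn, Cd34, Gpihbp1 and Tie1 lie near the dashed line of equal means, and 13 genes lie in the lower right, above 0 on slide 1 and below 0 on slide 2.

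The dye orientation also moved with the ratios of some genes. The dye term, the part of a ratio that turns sign with the orientation, was below 0 for 27 of 37 genes (52.7% of all genes) and at an unadjusted p under 0.05 for 8 (8.8% of all genes), with none called by limma. It was -0.50 for Flt1, -0.31 for Cd93, -0.33 for Robo4 and 0.71 for Vwf. Over the 37 genes the ratios of replicates 1 and 3, which share an orientation, had a Pearson correlation of 0.54, and those of replicates 2 and 4 of 0.50. The pairs opposite in both orientation and slide are also the pairs that share a sex label. Of these, replicates 2 and 3 had -0.19 and replicates 1 and 4 had 0.40. The pairs on 1 slide, which are opposite in orientation, had 0.32 (replicates 1 and 2) and 0.18 (replicates 3 and 4). Over all genes the correlations were 0.41 and 0.34 for the pairs of 1 orientation, 0.0056 and 0.26 for the pairs opposite in both, and 0.51 and 0.11 for the pairs on 1 slide, so the order of the pairs did not follow the orientation alone. Of the 19 genes above 0 on replicate 2, 18 were below 0 on replicate 3, where 53.3% of all genes above 0 on replicate 2 were. The part of slide and dye in the spread of single genes was not tested beyond these terms. The difference between the sex labels was called by limma for none of the 37 genes and for 0 of all 19365. That fit left 1 residual degree of freedom, which held the difference between slides, so it could hardly find a sex difference. For the sex labels none of the 37 had an unadjusted p under 0.05, where 1.07% of all genes did.

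More than 1 probe was available for 9 of the genes. By the test over 25591 probes none of the second probes was called, where 0.223% of all probes were called lower. The 2 Cd34 probes, at chr1:196787392-196787451 and chr1:196785280-196785339 (mm9), gave -0.38 ± 0.074 and -0.33 ± 0.072, and both were below 0 on all 4 arrays. The dimmer Plvap probe gave -0.35, -0.13, -0.60 and -0.33, with a fit of -0.35 ± 0.083, and was below 0 on replicate 2, where the brighter one was above 0. For Flt1 the probe at chr5:148373791-148373850 gave the wide spread above, and a probe assigned to another transcript, at chr5:148446872-148446931, gave 0.0069, 0.28, -0.16 and -0.40. The probes of Flt1 thus differed most on replicates 3 and 4. The second Kdr probe gave -0.31, 0.42, -0.11 and -0.39, also negative in its fit (-0.10 ± 0.14). For Sox17, Nos3 and Clec14a the second probe was below 0 as well, at -0.17, -0.15 and -0.12. The second Erg probe and another Flt1 probe were too dim to be kept.

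Further genes of the same cells were read from lists chosen with earlier results of these data known. Of 34 other endothelial genes, 32 were measured, and 21 of them were below 0 with a median of -0.14. None was called by limma (12 lower and 4 higher at an unadjusted p under 0.05), and 12 were below 0 on all 4 arrays. Ushbp1, at -0.50, -0.37, -0.52 and -0.40 (fit -0.45 ± 0.071, adjusted p = 0.0524), and Rasgrp3, a Ras activator, at -0.51, -0.27, -0.80 and -0.13 (fit -0.43 ± 0.084, adjusted p = 0.076), had the smallest p. Their medians by array, -0.13, -0.035, -0.27 and -0.20, again had replicate 2 highest and replicate 3 lowest.

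The VEGF and angiopoietin ligands and co-receptors lay around 0. Of 13 listed genes, 12 were measured, 7 were below 0 and the median was -0.024, with none called by limma (3 lower and 1 higher at an unadjusted p under 0.05). The placental growth factor Pgf, a ligand of Flt1, gave -0.49, -0.66, -0.45 and -0.11 (fit -0.43 ± 0.10, adjusted p = 0.112), and the VEGF co-receptor Nrp1 gave -0.073, -0.58, 0.13 and -0.54 (fit -0.27 ± 0.076, adjusted p = 0.146). Of 9 arterial genes 7 were below 0, with a median of -0.083 and none called (2 lower and 2 higher at an unadjusted p under 0.05). The arterial connexin gene Gja5 gave -1.01, -0.80, 0.051 and -1.18 (fit -0.74 ± 0.17, adjusted p = 0.104) and the netrin receptor gene Unc5b gave 0.27, 0.31, 0.32 and 0.20 (fit 0.27 ± 0.073, adjusted p = 0.128), in opposite directions.

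Of the 4 genes of the venous list, 3 had fitted ratios above 0. Emcn and Aplnr, described above as genes of veins or venous endothelium, had fitted ratios below 0 (-0.58 and -0.60). Ackr1, a decoy chemokine receptor of venules and red cells, gave 0.90, 0.81, 0.23 and 0.91 (fit 0.71 ± 0.12, adjusted p = 0.0561). The venous factor Nr2f2, which mesenchyme also makes, gave 0.54, 0.56, 0.19 and 0.19 (fit 0.37 ± 0.10, adjusted p = 0.130). Ephb4 gave 0.93, 1.41, -0.086 and -0.052 (fit 0.55 ± 0.26, adjusted p = 0.297), and was thus above 0 on slide 1 only. The difference between slides was called by limma for 1 of the 4 genes (lowest adjusted p = 0.0135), where 0.893% of all genes were called. The prostaglandin transporter gene Slco2a1 gave -0.36, -0.31, -0.73 and -0.15 (fit -0.39 ± 0.090, adjusted p = 0.106). None of the 4 was called (1 lower and 2 higher at an unadjusted p under 0.05), and the values of Nr2f2 and Ephb4 are given because the list is short.

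Genes of blood cells carried in vessels and of resident macrophages also mostly had ratios below 0. Of 12 macrophage genes 11 were below 0 (median -0.35) and 1 was called, the Fc receptor chain gene Fcer1g at -0.52 ± 0.078 (adjusted p = 0.049). Of 10 erythroid genes 9 were below 0 (median -0.27), and the embryonic globins Hbb-bh1 (-0.54 ± 0.072, adjusted p = 0.0385) and Hba-x (-0.66 ± 0.093, adjusted p = 0.0425) were called. Of 7 platelet genes 5 were measured, 4 were below 0 (median -0.38), and Pf4 was called at -0.63 ± 0.080 (adjusted p = 0.0356). The summed signal of the macrophage list was 18946 to 24191 in cDKO and 24535 to 30169 in control channels, and that of the platelet list 3468 to 4555 and 5007 to 6602. Neither pair of ranges overlapped. The erythroid sums, 307793 to 438145 and 410749 to 519214, did overlap. The summed signal of the 37 endothelial genes was 208128 to 237772 in cDKO and 241729 to 297380 in control, again without overlap. The signals of the probes of 4 genes, Egfl7, Cd34, Ramp2 and Icam2, made up 54.5% to 63.4% of that sum, and on replicate 2 the log2 ratio of the sums was -0.024. The sums of the 32 other endothelial genes measured, 176885 to 185181 and 181374 to 202524, did overlap. By the filter, each measured marker was well above background on all 4 arrays in at least 1 genotype. The part of these cells in the endothelial values was not tested.

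**Figure D4:**
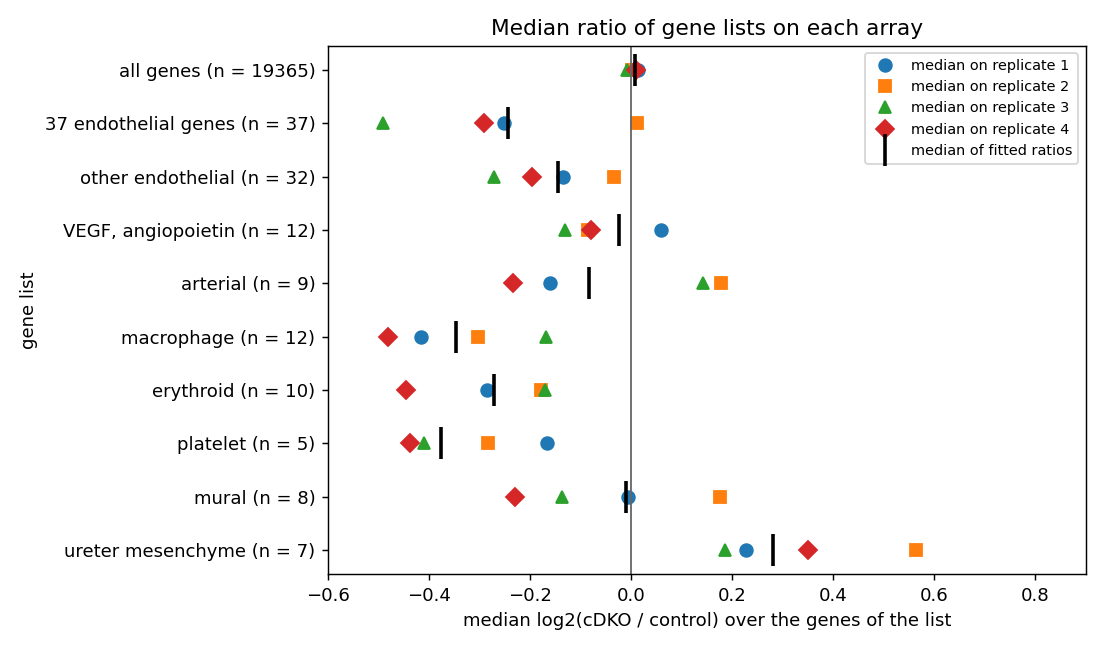
Median log2 ratio of each gene list on each array (coloured symbols) and the median of its fitted ratios (black bars), with the number of measured genes. The 37 endothelial genes lie between -0.49 on replicate 3 and 0.012 on replicate 2, whereas the macrophage list lies below 0 on every array, highest at -0.17 on replicate 3.

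The order of the arrays was not the same in these lists. Medians of the macrophage genes were -0.42, -0.30, -0.17 and -0.48 on replicates 1 to 4, those of the erythroid genes -0.29, -0.18, -0.17 and -0.45, and those of the platelet genes -0.17, -0.28, -0.41 and -0.44. Replicate 3, lowest for the endothelial genes, was highest for the macrophage genes. For the erythroid genes replicates 2 and 3 were about equal. Mural cells, which wrap small vessels, had 4 of 8 genes below 0, a median of -0.0098 and none called by limma (2 lower and 1 higher at an unadjusted p under 0.05). Their smallest p belonged to Ndufa4l2 (-0.74 ± 0.16, adjusted p = 0.0871) and the potassium channel subunit gene Abcc9 (-0.42 ± 0.10, adjusted p = 0.101). Of 5 lymphatic genes, Prox1 and Reln did not pass the filter and Ccl21a was not on the array. The others were Pdpn (0.12) and Lyve1 (0.00065), which are not restricted to lymphatic cells.

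Markers of the ureter tissue itself were also read. All 7 ureter mesenchyme and muscle genes were measured, and all 7 had fitted ratios above 0 (median 0.28, lowest 0.046). None was called by limma, and 5 were higher at an unadjusted p under 0.05. By array they were less even, since 4 of the 7 were above 0 on all 4 arrays (13.4% of all genes). Tshz3 was at 0.38 ± 0.083 and Tbx3 at 0.42 ± 0.094 (limma, adjusted p = 0.0953 and 0.1). All 7 urothelial genes were measured, with 4 below 0 and 3 above (median -0.030). The uroplakin gene Upk1b was called lower at -1.43 ± 0.20 (adjusted p = 0.0401), and the hedgehog ligand gene Shh was above 0 on all 4 arrays at 0.53 ± 0.14 (adjusted p = 0.12). Sums over the mesenchyme list were 79539.9 to 114639 in cDKO and 60650.4 to 101485 in control. The ratios of the endothelial genes are relative to such other RNA in the same ureter, since each array was centred on all its genes.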

How the data were processed

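Per the labels' protocols, the authors labelled 150 ng of total RNA per channel, swapping the dyes on replicates 2 and 4. The submitters' processing notes name Agilent Feature Extraction 10.7.3.1. The deposited scanner files give spot and background intensity per channel, not normalized, with probe positions in build mm9, per the file headers. The authors' deposited value table gives a signed fold per probe, with a median of 1 and 10624 to 11152 probes at exactly 1 on each array; its centring is unknown. Its correlation with log2 red over green was 0.945, -0.935, 0.909 and -0.910 on replicates 1 to 4, so a positive fold means higher in cDKO.

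Mean intensity was corrected with normexp (offset 50), normalized by loess (span 0.3), and averaged over the spots of a probe not marked as outliers. The filter asked for 3 of 4 spots well above background on every array of a genotype and left 25591 of 39429 probes (64.9%). The brightest kept probe stood for a gene. Channel levels were quantile scaled and are compared within a probe, except in the sums over lists, where brighter probes weigh more. Genotype and dye terms were fitted with limma 3.58.1 in R 4.3.3, two-sided, on 2 residual degrees of freedom and 4.53 of the prior, and p-values were adjusted by Benjamini-Hochberg over 19365 genes. The fit was tested on simulated data that held no slide or dye effects. Each array pairs the genotypes, so the replicate pairing is part of the fit, and the number of arrays limits the precision.

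Probes were named by accession in a RefSeq gene table (28328), symbol (3400) or synonym (243), and 7458 kept the name in the file. An older synonym names another gene on 2 probes, which were left out. The members and lists were chosen with earlier results of these data known. Every member is named; of each other list, the called genes (up to 4) or the 2 with the smallest p, and Nr2f2 and Ephb4 were added after their values were seen. Alternatives changed the background correction, normalization, filter, probe choice, terms of the fit, values and replicates.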

Additional observations from a re-analysis of the deposited data

How the results depend on the processing

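The median ratio of the 37 genes stayed below 0 under all 16 alternatives, from -0.33 on slide 2 alone to -0.038 on slide 1 alone, and between -0.31 and -0.11 when leaving out a replicate. Leaving out the dye term, adding a slide or sex term, or ignoring the pairing could not move it in this balanced design. Dropping the filter did not change it either. The number of genes called over the whole array moved from 165 to 255 with median centring, 1 with no filter on dim probes (4836 at an unadjusted p under 0.05), 258 with no dye term, 2418 with a slide term, 551 on slide 1 alone, 0 on slide 2 alone (limma, 1346 at an unadjusted p under 0.05) and 2 with a sex term. Leaving out a replicate gave 34 to 403. With no replicate block, that is with the pairing within an array ignored, 73 genes and 1 of the 37 were called. Of the 37 genes, 16 were called with a slide term (12.5% of all genes) and 0 to 3 without a replicate (0.176% to 2.08% of all genes). With median centring, no filter, a sex term or slide 2 alone 0 were called (limma, 12, 18, 17 and 21 at an unadjusted p under 0.05). Of these, 11, 17, 16 and 21 were lower, where 2.78%, 7.31%, 5.14% and 3.16% of all genes were lower at that threshold. The fits without a replicate kept the dye term, so the array left alone in its dye orientation was fitted exactly. All these fits differ in their residual degrees of freedom, and the cause of the moves was not tested further.

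No called gene turned its sign. Among uncalled genes, 14 changed sign under at least 1 alternative, 29 values in all. On slide 1 alone the ratios were 0.024 for Plvap, 0.17 for Cd93, 0.15 for Mmrn2, 0.14 for Robo4, 0.092 for Eng, 0.032 for Acvrl1, 0.018 for Nos3, 0.15 for Rasip1, 0.043 for Tal1, 0.13 for Sox7 and 0.021 for Sox18. On slide 2 alone Cdh5 was at -0.17 and Flt1 at -0.26. Flt1 was at -0.015 with the scanner's processed signals, -0.032 with the mean of all kept probes and -0.038 with the authors' deposited table. Leaving out a replicate gave -0.076 to 0.24 for Cdh5, -0.24 to 0.054 for Cd93, -0.32 to 0.055 for Mmrn2, -0.21 to 0.034 for Robo4, -0.17 to 0.18 for Flt1, -0.0030 to 0.041 for Flt4, -0.23 to 0.035 for Eng and -0.19 to 0.085 for Rasip1. The dimmer probes of Clec14a, Vwf and Erg lay near background on some arrays, and the Flt4 probe was dim as well. This limits what these probes can show.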
